A study of Mus musculus with 12 samples.

Results

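The genes described here encode 7 subunits of the GABA-A receptor in the mouse brain, namely Gabra2, Gabra3, Gabra4, Gabra5, Gabrb1, Gabrb2 and Gabrd. They were taken by symbol, through the Ensembl identifier of each row, and make up 7 of the 38924 genes in each deposited table. All 7 passed the filter on low counts, so no member is missing from any comparison. The study sequenced polyadenylated RNA of whole brains from 6-week-old mice homozygous for an allele of Rorb, an orphan nuclear receptor gene, in the high stepper series, whose mutants are known for their gait. The groups were Rorbh1/h1 mice on C57BL/6J (h1), Rorbh2/h2 mice of the B6(Cg)-Tyrc-2J/J strain (h2), Rorbh4/h4 mice of the B6.129S7-Il1r1tm1Imx/J strain (h4) and wild type mice on C57BL/6J (WT), with 3 brains and 3 libraries each. The B6(Cg)-Tyrc-2J/J strain carries an albino allele of Tyr and the B6.129S7-Il1r1tm1Imx/J strain a targeted allele of Il1r1, so in h2 and h4 the Rorb allele and the strain cannot be told apart. Each h4 library held less Rorb (8.65 to 9.11 CPM) than each WT library (16.3 to 18.4 CPM), and the h1 and h2 libraries held more (22.6 to 33.1 CPM).

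GABA-A receptors are chloride channels built from subunits around a central pore and opened by GABA, the main inhibitory transmitter of the adult brain. Most hold alpha and beta subunits, between which GABA binds, together with a gamma subunit, which places the receptor under synapses and forms the benzodiazepine site with an alpha subunit. The delta subunit takes the place of gamma in receptors outside synapses, which carry a slow, tonic current and are sensitive to neurosteroids. The C57BL/6J strain is known to carry an intronic deletion in Gabra2 that lowers its level in the brain relative to other inbred strains.

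The genes lie on 5 chromosomes, here with positions of GENCODE M21 in the GRCm38 build. Gabra2 (ENSMUSG00000000560, minus strand, 70957597 to 71095849), Gabra4 (ENSMUSG00000029211, minus strand, 71569749 to 71658308) and Gabrb1 (ENSMUSG00000029212, plus strand, 71658113 to 72149037) form a cluster on chromosome 5 with Gabrg1, which is not one of the 7. Gabrb2 (ENSMUSG00000007653, plus strand, 42419757 to 42629028) lies on chromosome 11 in a cluster with Gabra6. Gabra5 (ENSMUSG00000055078, minus strand, 57407672 to 57510059) lies on chromosome 7 in a cluster with Gabrg3. Gabra3 (ENSMUSG00000031343, minus strand, 72432681 to 72656848) lies on the X chromosome and Gabrd (ENSMUSG00000029054, minus strand, 155384980 to 155398112) on chromosome 4. Gabra4 and Gabrb1 start head to head and share 46 exonic bases on opposite strands. Reads of those bases could come from either gene, since the libraries carry no strand information, but the bases make up 0.756% of the exonic bases of Gabra4 and 0.332% of those of Gabrb1.

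ROR receptors bind the letters AGGTCA, usually after an AT-rich stretch, which makes the promoters of the members a place to look in Rorb mutants. RefSeq promoters in GRCm38.p6 were found for 6 of the 7 genes, Gabrd being the exception, with 10 promoters in all. In the 250 bases before the start, AGGTCA on either strand was in 0 of these 10, against 14.0% of all 32851 promoters, which says only that these letters are not in those windows. The letters GGGCGG, a GC box, were on either strand in 3 of the 10 (1 promoter each of Gabra2, Gabra4 and Gabrb2), against 32.7% of all promoters. The pair printed here belongs to Gabra2, whose level left the others in 1 library, and to Gabra3, whose level varied least. The Gabra2 window (chr5:71095850-71096099, minus strand) is 70.0% G or C and the Gabra3 window (chrX:72656920-72657169, minus strand) 42.4%, with the GC box in capitals.
Gabra2: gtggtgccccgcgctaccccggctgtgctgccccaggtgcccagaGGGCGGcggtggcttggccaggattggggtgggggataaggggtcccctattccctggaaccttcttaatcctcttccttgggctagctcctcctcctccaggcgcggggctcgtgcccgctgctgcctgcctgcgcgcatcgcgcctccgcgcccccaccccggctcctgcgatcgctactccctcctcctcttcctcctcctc
Gabra3: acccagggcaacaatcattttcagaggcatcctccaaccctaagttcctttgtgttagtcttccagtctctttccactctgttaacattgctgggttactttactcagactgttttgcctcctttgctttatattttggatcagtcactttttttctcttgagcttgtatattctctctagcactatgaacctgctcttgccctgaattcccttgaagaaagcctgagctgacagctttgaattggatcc

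The order of the 7 subunits by mean level was the same in each of the 4 genotypes. On the scale of deposited TPM, which is per transcript length and so allows genes to be compared, the beta2 gene Gabrb2 led with 95.1 TPM (84.2 to 105.1 over the 12 libraries). The synaptic alpha3 gene Gabra3 followed with 72.5 TPM (69.3 to 78.2) and the delta gene Gabrd with 67.5 TPM (64.5 to 69.7), and Gabra3 was above Gabrd in 11 of 12 libraries. The alpha4 gene Gabra4, the usual partner of delta in the thalamus and dentate gyrus, had 56.2 TPM (53.5 to 60.2). The alpha5 gene Gabra5, best known from hippocampal pyramidal cells, had 40.6 TPM (35.1 to 43.7). The alpha2 gene Gabra2 had 30.2 TPM (26.5 to 44.2) and lay below Gabra5 in 11 of 12 libraries. The beta1 gene Gabrb1 had the lowest level of the 7, 23.4 TPM (19.9 to 25.5). The other neighbours in that order did not overlap in any library.

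**Figure D1:**
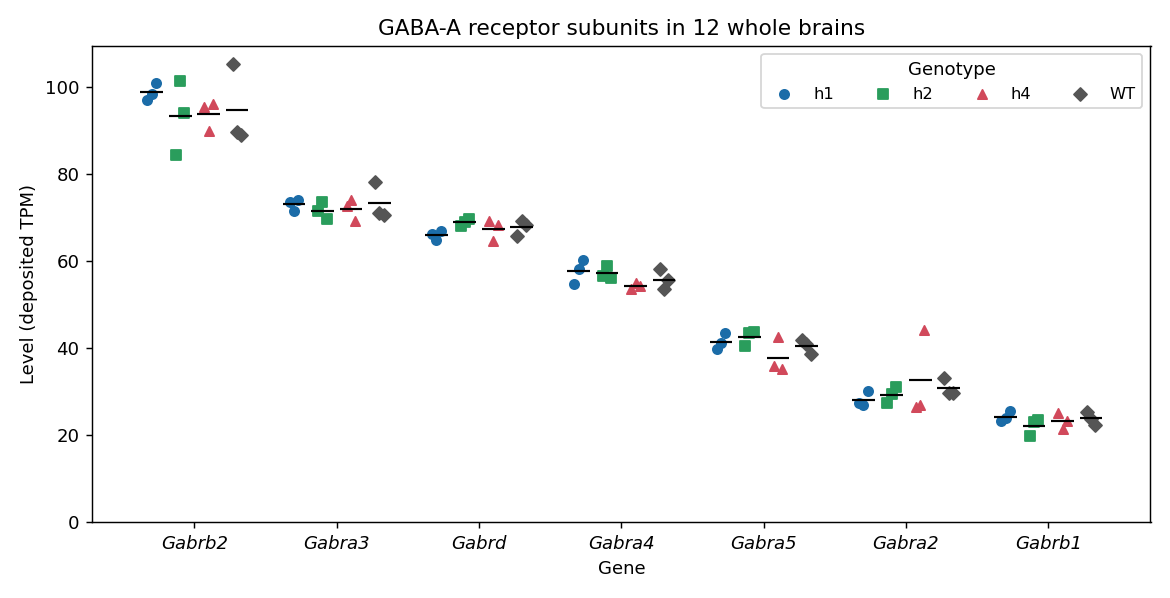
Level of each subunit gene (deposited TPM, linear axis from 0) in each of the 12 libraries, with genotypes by colour and marker in the order h1, h2, h4, WT and a line at each mean of 3 libraries. The order of the genes is the same in each genotype, and the single point that leaves its group is h4 replicate 3 at Gabra2, with 44.2 TPM.

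Among the subunits outside this group, the granule cell gene Gabra6 had a mean of 107.8 TPM, above that of Gabrb2, although their ranges overlapped. Gabrg1 (18.8 TPM), Gabrg3 (8.06 TPM), Gabrq (5.63 TPM), Gabre (1.37 TPM) and Gabrr2 (1.01 TPM) lay below Gabrb1. Gabrp, Gabrr1 and Gabrr3 did not pass the filter on low counts. These are levels of RNA in a whole brain, where fewer cells of a type and less RNA per cell cannot be told apart.

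The question of the design is how each Rorb allele changes the brain transcriptome, and the levels of these 7 subunits did not pass the test in any comparison. With edgeR's quasi-likelihood test on all 12 libraries, 0 of the 7 genes were called at an adjusted p of 0.05 in h1 against WT, where 0.625% of the 16493 genes tested were called. The count was also 0 of 7 in h2 against WT (0.679% of all genes) and in h4 against WT (4.55%). Between mutants it was 0 of 7 in h2 against h1 (0.722%), in h4 against h1 (4.64%) and in h4 against h2 (3.22%). It was 0 of 7 for the mean of the 3 mutants against WT (1.1%). Of these 49 tests, 4 had an unadjusted edgeR p under 0.05. They were 1 in h2 against h1, 2 in h4 against h1 and 1 in h4 against h2. In these comparisons 9.49%, 19.1% and 16.8% of all genes were under it. DESeq2 and limma on log2 TPM also called 0 of the 7 genes.

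The estimates of this model, which has no covariate, bound how large a change could have been. Leaving aside Gabra2, the standard errors of the log2 fold changes lay between 0.032 and 0.065, and the 95% intervals of each single mutant against WT lay within 0.862-fold and 1.161-fold. The 7 log2 fold changes had a median of 0.06 in h1, 0.00 in h2 and 0.00 in h4 against WT, beside medians over all tested genes of 0.00044, 0.0034 and 0.0091. A p that misses the threshold does not show that the levels were equal. Xist is the RNA of the inactive X chromosome in females. It was high in every WT library but not in every library of any mutant. Each contrast with WT therefore partly follows Xist class. With Xist as a covariate, the log2 fold change of Gabrb2 in h1 against WT was 0.125 (SE 0.065, edgeR adjusted p = 0.742). Those of Gabra5 and Gabrd in h1 changed sign, to -0.011 and 0.009 (0.988 each). As a description of spread, the coefficient of variation over the 12 libraries was 2.91% for Gabra3, 3.41% for Gabrd, 3.88% for Gabra4, 5.51% for Gabrb2, 6.39% for Gabrb1, 6.57% for Gabra5 and 15.9% for Gabra2. The median of 10434 tested genes that averaged 10 CPM or more was 5.34%.

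**Figure D2:**
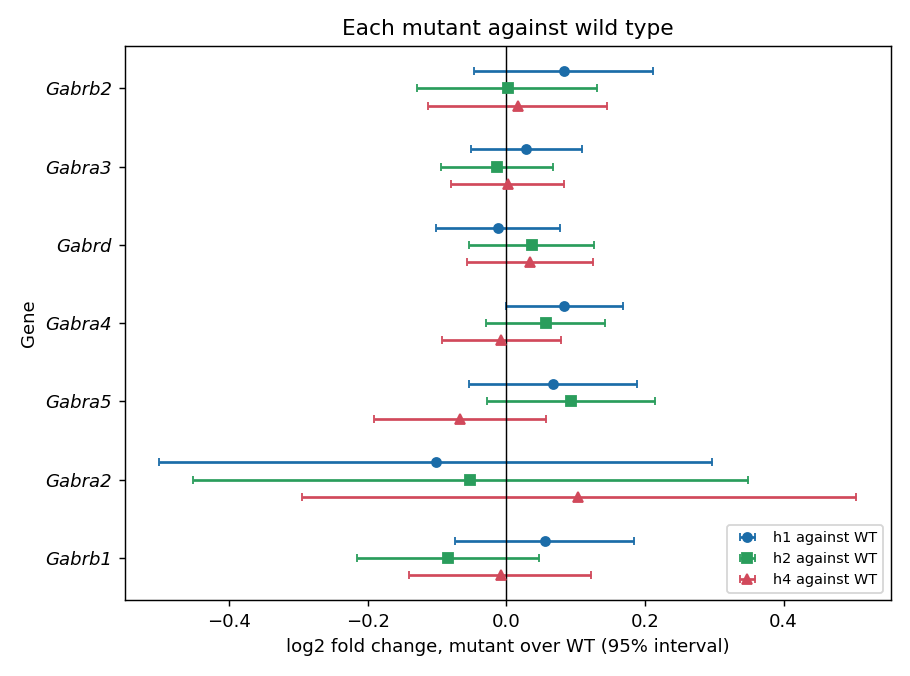
Log2 fold change of each subunit gene in h1, h2 and h4 over WT, from edgeR, with bars for the 95% interval. Every interval spans 0, and those of Gabra2 are wider than those of the other 6 genes.

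Among the alpha genes, Gabra3 varied least. This subunit is prominent in the reticular thalamus and in monoamine nuclei. It had 132.4, 131.3 and 134.9 CPM in h1, 132.2, 132.6 and 125.5 CPM in h2, 134.2, 136.1 and 125.9 CPM in h4, and 136.7, 126.8 and 129.9 CPM in WT. The 4 groups overlapped throughout. Its log2 fold change against WT was 0.03 in h1, -0.01 in h2 and 0.00 in h4 (SE 0.04 each, edgeR adjusted p = 0.871, 0.943 and 0.989). Gabra3 lies on the X chromosome, and Xist was high in 1 h1 library, 1 h2 library, 2 h4 libraries and 3 WT libraries. With Xist as a covariate the log2 fold change was 0.02 in h1, -0.02 in h2 and -0.002 in h4.

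Gabra4 had 114.2, 122.0 and 126.3 CPM in h1, 121.5, 121.5 and 115.8 CPM in h2, 114.2, 116.7 and 114.2 CPM in h4, and 118.1, 109.6 and 117.0 CPM in WT. Its 3 h4 libraries lay close together at the lower end of the h1 range. In h4 against h1 its log2 fold change was -0.09 (SE 0.04), with an unadjusted p of 0.0387 from edgeR, as 19.1% of all genes had under 0.05, and an adjusted p of 0.23. Against WT it was 0.08 in h1, 0.06 in h2 and -0.01 in h4 (SE 0.04 each, edgeR adjusted p = 0.517, 0.659 and 0.96).

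Gabra2 had 31.8, 31.3 and 35.3 CPM in h1, 32.7, 33.9 and 35.9 CPM in h2, 31.4, 32.0 and 51.8 CPM in h4, and 37.6, 33.9 and 34.9 CPM in WT. Replicate 3 of h4 stood 1.38-fold above the highest of the other 11, while the other two h4 libraries lay at the low end of all libraries. That library decided the sign of the comparison. The log2 fold change of h4 against WT was 0.10 (SE 0.17, edgeR adjusted p = 0.824) with all libraries and -0.17 (SE 0.07, edgeR adjusted p = 0.224) without h4 replicate 3. The difference of h4 and h1 was 0.21 with all libraries and -0.06 without it, and that of h4 and h2 was 0.16 with all libraries and -0.12 without it (edgeR adjusted p = 0.599 and 0.727 against h1, 0.73 and 0.469 against h2). Gabra2 without that library was not called in any comparison.

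The high level of Gabra2 in that library was not shared by the rest of the chromosome 5 cluster. In h4 replicate 3 Gabrg1 had 51.3 CPM, Gabra4 114.2 CPM and Gabrb1 35.9 CPM, each inside the range of the other 11 libraries. Of 15 tested genes within 2 Mb of Gabra2, 4 lay outside that range, Gabra2, Corin and Slain2 above it and Gnpda2 below it. Corin had 3.28 CPM in that library, against 1.58 to 2.57 CPM in the others, Slain2 38.1 CPM, against 33.0 to 37.2, and Gnpda2 28.1 CPM, against 28.6 to 32.3. Among the 10434 genes that averaged 10 CPM or more, 5 were more than 1.3-fold above every other library in this one. They were Gabra2 and the activity-induced genes Fos (63.6 CPM, 1.49-fold above the next library), Nr4a1 (88.7 CPM, 1.42-fold), Junb (41.2 CPM, 1.35-fold) and Dusp1 (45.4 CPM, 1.31-fold). The other libraries had between 0 and 4 such genes. In h4 replicate 3, 6 genes were more than 1.3-fold below every other library, where the others had between 0 and 7. They were Entpd4, Entpd4b, Tceanc2 and the predicted genes Gm16867, Gm27177 and Gm15446. Entpd4, Entpd4b, Gm16867 and Gm27177 lie on chromosome 14, Tceanc2 on chromosome 4 and Gm15446 on chromosome 5. Gm15446 had 1.13 CPM, against 14.8 CPM in the next library, and was not among the 15 genes within 2 Mb of Gabra2. The neighbours, the activity-induced genes and these 6 were named after their values were seen, and what set Gabra2 in this brain was not tested.

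**Figure D3:**
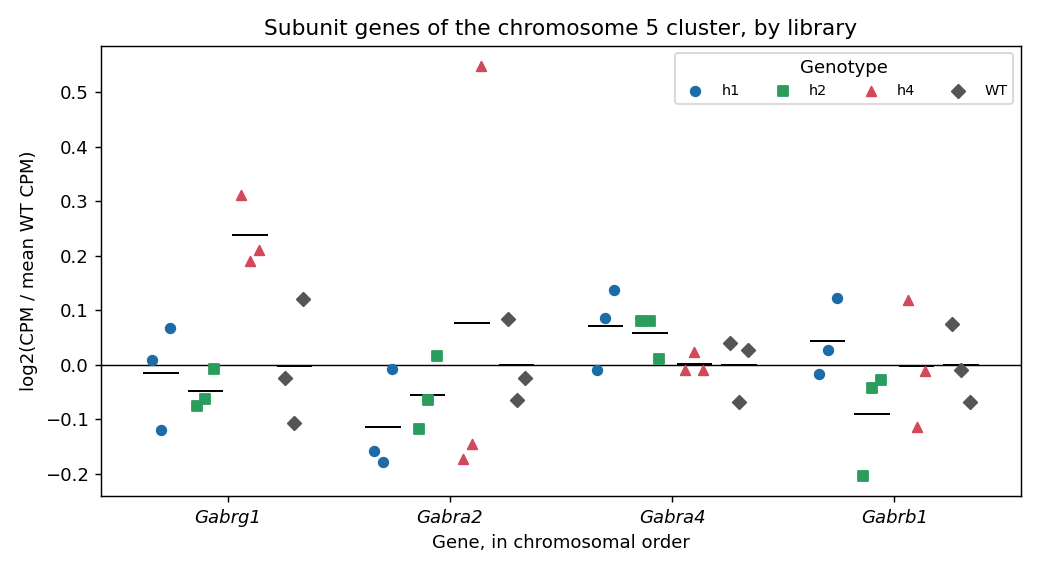
Level of the 4 subunit genes of the chromosome 5 cluster in each library, as log2 of the CPM over the mean of the 3 WT libraries, in the order h1, h2, h4, WT, with lines at the group means. Replicate 3 of h4 leaves the others at Gabra2 alone, and all 3 h4 libraries lie above the others at Gabrg1, 50.6 to 55.0 CPM against 40.9 to 48.2 CPM in the other 9.

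Gabra5 had 51.7, 53.9 and 57.0 CPM in h1, 54.3, 56.1 and 56.3 CPM in h2, 47.7, 56.3 and 46.0 CPM in h4, and 53.1, 52.5 and 50.7 CPM in WT. The 3 h2 libraries lay above the 3 WT libraries, and 15.2% of all genes had no overlap in that comparison. Replicates 1 and 3 of h4 had the lowest values of the 12, and replicate 2 was among the highest. In h4 against h2 its log2 fold change was -0.16 (SE 0.06), with an unadjusted p of 0.0135 from edgeR, as 16.8% of all genes had under 0.05, and an adjusted p of 0.155, the smallest of the 49 tests. In h4 against h1 it was -0.13 (SE 0.06, edgeR adjusted p = 0.216). Against WT it was 0.07 in h1, 0.09 in h2 and -0.07 in h4 (SE 0.06 each, edgeR adjusted p = 0.78, 0.586 and 0.634).

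Those results for Gabra5 depended on replicate 2 of h4. Without it, Gabra5 was called lower in h4 against h2 with a log2 value of -0.26 (SE 0.05, edgeR adjusted p = 0.00727) and against h1 at -0.23 (SE 0.05, edgeR adjusted p = 0.0114), and it was not called against WT at -0.17 (SE 0.05, edgeR adjusted p = 0.0827). With all libraries but no filter on low counts, Gabra5 was also called lower in h4 against h2 (-0.17, edgeR adjusted p = 0.0417). Over the alternatives tried, the adjusted p of h4 against h2 ranged from 0.00727 to 0.474. The same 2 low libraries of h4 had the highest levels of cerebellar granule cell markers, a cell type known for Gabra6 and Gabrd. The summed level of Cbln1, Cbln3, Neurod1, Zic1 and Etv1 was 869.7 and 916.4 CPM in h4 replicates 1 and 3, 717.1 CPM in h4 replicate 2 and 715.9 to 811.1 CPM in the other 9. None of these 5 markers was at 0. Gabra6 had 141.2 and 144.6 CPM in h4 replicates 1 and 3, 115.9 CPM in h4 replicate 2 and 105.8 to 126.0 CPM in the other 9. Other marker lists split these h4 libraries too. Summed over 6 hippocampal markers, h4 replicates 1 and 3 had 349.2 and 331.3 CPM and replicate 2 had 306.1 CPM. The other 9 had 285.0 to 326.7 CPM. For 6 excitatory projection neuron markers the values were 2244 and 2205, 2409, and 2371 to 2598 CPM in the same order. For 7 striatal markers they were 536.2 and 572.5, 674.2, and 592.0 to 642.1 CPM. For 6 thalamic markers they were 438.8 and 439.7, 394.8, and 411.5 to 447.9 CPM. For 4 Purkinje cell markers they were 1618 and 1683, 1441, and 1521 to 1765 CPM. The part of the marker levels in the Gabra5 result was not tested. Replicates 1 and 3 were also the h4 libraries with high Xist, and with Xist as a covariate the log2 fold change of h4 against h2 was -0.13 (SE 0.06, edgeR adjusted p = 0.237).

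Among the h4 libraries, the delta gene Gabrd was high where Gabra5 was low. It had 63.9, 62.4 and 61.8 CPM in h1, 66.9, 63.4 and 65.9 CPM in h2, 67.9, 61.6 and 67.2 CPM in h4, and 62.5, 63.5 and 64.9 CPM in WT. Replicates 1 and 3 of h4 were the highest of the 12 and replicate 2 the lowest. Its log2 fold change against WT was -0.01 in h1, 0.04 in h2 and 0.03 in h4 (SE 0.04 each, edgeR adjusted p = 0.964, 0.818 and 0.75). Over the deviations of the 12 libraries from their genotype means, Gabra5 and Gabrd had a Pearson r of -0.90 and a Spearman rho of -0.85, each with an exact permutation p of 0.00463 over 1296 arrangements within genotypes, and an adjusted p of 0.0972 over the 21 pairs of members. Without the 2 libraries whose deviation of Gabra5 lay farthest from the median deviation, r was -0.79. Within genotype and Xist class, which leaves 9 libraries, r was -0.66 and rho -0.70 (exact permutation p = 0.104 over 48 arrangements). No pair of the 21 passed the adjustment. The next was Gabrb1 with Gabrb2, with an r of 0.73 and a rho of 0.79, exact permutation p of 0.0162 and 0.0131, adjusted to 0.17 and 0.138. Within genotype and Xist class its r was 0.70 and its rho 0.77 (exact permutation p = 0.0833).

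The beta genes encode the subunits that form the GABA site together with alpha. Gabrb2, the beta gene with the highest level of the 7 subunits, had 193.2, 196.7 and 202.7 CPM in h1, 174.5, 202.1 and 186.7 CPM in h2, 195.4, 184.0 and 194.3 CPM in h4, and 206.4, 176.5 and 180.7 CPM in WT. The WT libraries spanned the values of all other groups but the lowest h2 library. Its log2 fold change against WT was 0.08 in h1, 0.00 in h2 and 0.02 in h4 (SE 0.06 each, edgeR adjusted p = 0.717, 0.996 and 0.929). Gabrb1 had 35.7, 36.9 and 39.4 CPM in h1, 31.4, 35.2 and 35.5 CPM in h2, 39.3, 33.4 and 35.9 CPM in h4, and 38.1, 36.0 and 34.5 CPM in WT. Its 3 h2 libraries lay below its 3 h1 libraries, and 15.6% of all genes had no overlap in that comparison. The log2 fold change of h2 against h1 was -0.14 (SE 0.06), with an unadjusted p of 0.0371 from edgeR, as 9.49% of all genes had under 0.05, and an adjusted p of 0.471.

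The mix of transcripts was followed through the length that RSEM, the authors' estimation tool, averages over the transcripts of a gene. The deposited tables list 1 transcript each for Gabra2, Gabra4, Gabra5 and Gabrb1, so that this length could vary only for Gabra3, Gabrb2 and Gabrd. Gabrb2 averaged 3950.0 ± 6.00 bases in h1, 3983.0 ± 1.78 in h2, 3981.7 ± 1.72 in h4 and 3976.5 ± 10.3 in WT (SD, n = 3 each). All 3 h1 libraries lay below the other 9. The difference of h1 and WT was -26.5 bases with an exact permutation p of 0.1, 2-sided, the smallest that 3 against 3 libraries allow, and 0.9 after adjustment over 9 tests. For Gabra3 and Gabrd the differences from WT lay between -7.1 and 18.8 bases with exact p of 0.6 to 1.0.

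Of the other GABA-A receptor subunits, 9 of 12 were tested and Gabrg1 was called in h4. The gamma1 gene Gabrg1, which is known from astrocytes and Bergmann glia as well as neurons, had 55.0, 50.6 and 51.3 CPM in h4, against 43.6, 41.2 and 48.2 CPM in WT, and rose by 0.23 on the log2 scale (SE 0.06, edgeR adjusted p = 0.0204). It was the only one of the 9 called against WT in any mutant, and the call ended without WT replicate 1 or 2 (edgeR adjusted p = 0.101 and 0.154), without h4 replicate 1 (0.14) and with limma on log2 TPM (0.195). Of 6 astrocyte markers, Gfap, Slc1a3, Aldh1l1 and Gja1 rose in h4 against WT, with log2 fold changes of 0.38, 0.15, 0.28 and 0.14. Aqp4 and Slc1a2 were not called, Slc1a2 with a log2 fold change of -0.14, and Slc1a2 was called lower in h4 against h1 (-0.24, edgeR adjusted p = 0.0279). The summed CPM of the 6 overlapped, at 4261 to 4397 in h4 and 4260 to 4357 in WT, and none of the 6 was at 0. The part of astrocyte RNA in the level of Gabrg1 was not tested. Of 6 markers of excitatory projection neurons, 3 were called lower in h4 against WT and 3 were not called, beside 2.91% of all genes called lower. Among those called, Tbr1 fell by 0.19 on the log2 scale (SE 0.05, edgeR adjusted p = 0.0341). Camk2a fell by 0.17 (SE 0.04, edgeR adjusted p = 0.0179), although its h4 and WT libraries overlapped. Of 7 markers of GABAergic interneurons, 0 were called by edgeR, DESeq2 or limma in any comparison, with an unadjusted edgeR p under 0.05 in 1, 0 and 2 of them in h1, h2 and h4 against WT, where 9.82%, 11.5% and 17.6% of all genes were under it.

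Of 22 tested genes that anchor or traffic the receptor, 5 fell and 0 rose in h4 against WT. Among all genes, 1.64% were called higher and 2.91% lower, and the median log2 fold change of the list was -0.06. In that comparison 11 of the 22 had an unadjusted edgeR p under 0.05, against 17.6% of all genes. The synaptic adhesion gene Nlgn2, which recruits inhibitory postsynaptic scaffolds, had 181.6, 179.0 and 182.0 CPM in h4, against 204.1, 211.9 and 190.1 CPM in WT (log2 fold change -0.17, SE 0.04, edgeR adjusted p = 0.00921). Mdga1, a binding partner that holds Nlgn2 back, had 23.8, 24.9 and 27.4 CPM in h4, against 36.0, 36.4 and 28.3 CPM in WT (-0.42, SE 0.09, edgeR adjusted p = 0.0128). Shisa7, an auxiliary protein of the receptor, fell by 0.19 on the log2 scale (SE 0.05, edgeR adjusted p = 0.0261). Trak1, a motor adaptor, fell by 0.16 (SE 0.04, edgeR adjusted p = 0.0256). Plcl2, a phosphatase-binding protein related to a regulator of receptor trafficking, fell by 0.17 (SE 0.05, edgeR adjusted p = 0.047) and was named after its value was seen. Each of these 5 calls ended without WT replicate 1 (edgeR adjusted p = 0.0682 to 0.227) or WT replicate 2 (0.0691 to 0.16), and those of Shisa7, Mdga1, Trak1 and Plcl2 also without h4 replicate 1 (0.0687 to 0.223). The calls of Shisa7, Trak1 and Plcl2 ended without h4 replicate 3 (0.0676 to 0.127), that of Mdga1 without h4 replicate 2 (0.0519), and that of Plcl2 without h1 replicate 3 (0.052) or h2 replicate 3 (0.0502). With Xist as a covariate the calls of Trak1 (0.0541) and Plcl2 (0.0644) ended. DESeq2 called 4 of the 5, Plcl2 being the exception, and limma on log2 TPM 0. In h1 and h2 against WT, 0 of the 22 were called by edgeR, where 0.625% and 0.679% of all genes were called. An unadjusted p under 0.05 was found for 4 and 3 of them, against 9.82% and 11.5% of all genes, and DESeq2 called 0 in h1 and 1, Shisa7, in h2. Shisa7 had log2 fold changes of -0.12 in h1 and -0.19 in h2 (edgeR adjusted p = 0.341 and 0.062), with every library below WT. Mdga1 had -0.21 and -0.32 (0.402 and 0.127). In the mean of the 3 mutants against WT, edgeR called 2 of the 22, both lower, where 1.1% of all genes were called. They were Shisa7 (-0.17, adjusted p = 0.0329) and Mdga1 (-0.32, 0.0376), and the calls ended in 5 and 10 of 17 alternatives.

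The lists of the chloride gradient (8 genes tested) and the benzodiazepine site (5 genes tested) had 1 called gene each in h4 against WT. Among all genes, 4.55% were called there. Each of the 2 genes kept its call under all 18 alternatives. Slc12a5, the neuronal chloride extruder KCC2, had 446.8, 445.8 and 454.2 CPM in h4, against 543.1, 539.8 and 508.2 CPM in WT, and fell by 0.25 on the log2 scale (SE 0.04, edgeR adjusted p = 0.000111). It was also lower in h4 than in h1 (-0.15, edgeR adjusted p = 0.019) and in h2 (-0.19, edgeR adjusted p = 0.00222), and the first of these calls ended without h1 replicate 1 or 3 or h4 replicate 1 or 3 (adjusted p = 0.0523 to 0.0822). Dbi, whose peptide binds at the benzodiazepine site, had 168.1, 160.4 and 169.9 CPM in h4, against 124.8, 128.6 and 135.1 CPM in WT, and rose by 0.35 (SE 0.04, edgeR adjusted p = 1.17e-06). Dbi is abundant in astrocytes, whose markers are given above with Gabrg1, and their part was not tested. Of 8 chloride genes the other call was Slc12a2, the importer NKCC1, which had 193.8, 208.0 and 196.0 CPM in h1, against 166.2, 173.1 and 185.7 CPM in WT (0.20, SE 0.04, edgeR adjusted p = 0.0218). That call ended without WT replicate 1 or 2 (adjusted p = 0.236 and 0.0925), without h1 replicate 2 or 3 (0.23 and 0.0601), with Xist as a covariate (0.0589) and with limma (0.455). Of 8 oligodendrocyte markers, 6 were called higher in h1 against WT, where 0.625% of all genes were called. Their summed level was 13890 to 14310 CPM in h1 and 10750 to 12280 CPM in WT. The part of these markers in the level of Slc12a2 was not tested.

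**Figure D4:**
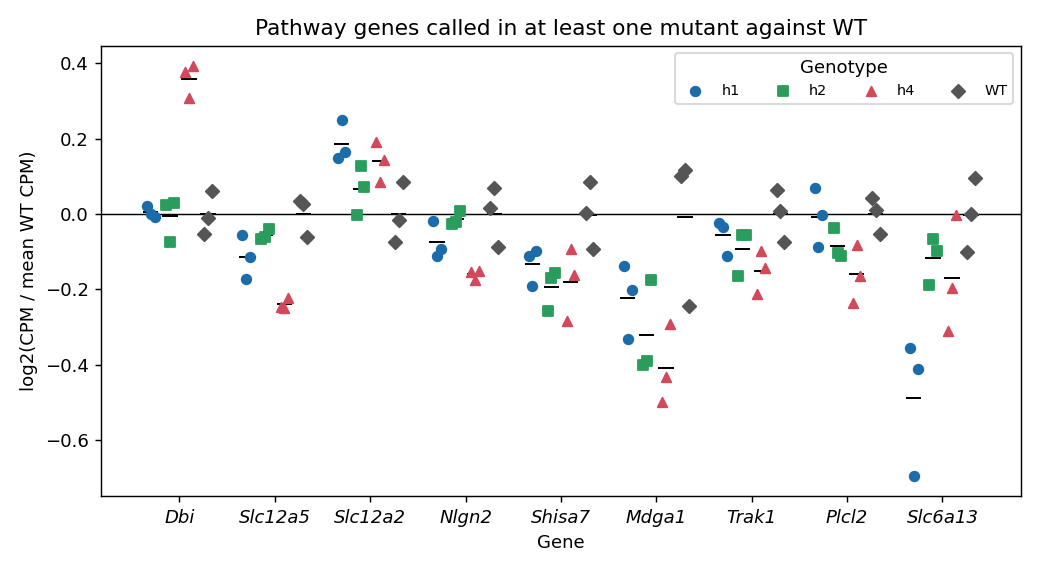
Level of the 9 genes of the receptor's pathway lists that were called in at least 1 mutant against WT, in each library, as log2 of the CPM over the mean of the 3 WT libraries, in the order h1, h2, h4, WT, with lines at the group means. At Dbi the 3 h4 libraries lie above all others and at Slc12a5 below all others, whereas at Slc6a13 the 3 h1 libraries are the lowest.

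In the list of GABA synthesis, packaging, uptake and breakdown, 1 of 10 genes was called by edgeR in any comparison. That call was in h1 against WT, where 0.625% of all genes were called. DESeq2 also called Slc6a11, a glial GABA transporter, in h4 against h1 and against h2. Slc6a13, a GABA transporter of the brain coverings, had 13.4, 10.6 and 12.9 CPM in h1, against 16.0, 17.1 and 18.3 CPM in WT, a fall of 0.47 on the log2 scale (SE 0.09, edgeR adjusted p = 0.00865), whose call ended without h1 replicate 2 (0.13), with Xist as a covariate (0.1) and with limma (0.179). It is also 1 of 5 meningeal fibroblast markers, of which it was the only one called in h1 against WT. The median log2 fold change of the 5 was -0.048. Their summed level was 90.05 to 95.04 CPM in h1 and 97.6 to 102.4 CPM in WT. That sum includes Slc6a13, so part of the gap is the fall of Slc6a13 itself. Of 4 endothelial markers, Cldn5 (-0.57, edgeR adjusted p = 0.0115) and Cdh5 (-0.34, edgeR adjusted p = 0.0183) were lower in h1 than in WT, at a summed level of 124.0 to 138.9 CPM in h1 and 153.6 to 154.7 CPM in WT. No marker of either list was at 0, and their part in the level of Slc6a13 was not tested. The synthesis genes Gad1 and Gad2 and the vesicle transporter Slc32a1 were among those not called. None of 7 GABA-B receptor genes and none of 6 glycine receptor genes were called by edgeR in any comparison, while DESeq2 called Gabbr1 in h4 against WT and Gabbr2 in the mean of the mutants against WT, and limma called 0. At an unadjusted p under 0.05 there were 1, 2 and 4 GABA-B genes and 0, 2 and 2 glycine receptor genes in h1, h2 and h4 against WT, where 9.82%, 11.5% and 17.6% of all genes were under it, with median log2 fold changes of -0.09, -0.12 and -0.09 for the first list and 0.04, 0.08 and -0.01 for the second.

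Over the 12 libraries, the genes most like each member in log2 CPM are given as a description, since the libraries share depth, composition and genotype. Among 13657 genes that averaged 1 CPM or more, Gabra4 was nearest to Atp6v1h (Pearson r = 0.94, Spearman rho = 0.88), Wdr17 and Mat2b, and Gabrd to Uvssa (r = 0.93, rho = 0.89), Npr1 and Trim68. Gabrb2 was nearest to Thumpd3 (r = 0.90, rho = 0.87), Ube3a and Uhmk1, and Gabra3 to Rock2 (r = 0.86, rho = 0.91), Kat14 and Slmap. Gabra5 was nearest to Zik1 (r = 0.89, rho = 0.79), Fam81a and Tigar, and Gabrb1 to Usp51 (r = 0.87, rho = 0.88). For Gabra2 the nearest was Telo2 (r = 0.88, rho = 0.66), followed by Abcc12 and Sirt4, and without the 2 libraries farthest from its median r with Telo2 was 0.56. No member was among the 3 nearest genes of another.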

How the data were processed

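Each of the 12 libraries has 1 table of RSEM output. It was made with RSEM 1.2.12 and Bowtie2 2.2.0, per the submitters' processing notes, and a genome build is not given in the sources used here. Expected counts, as deposited, are estimated read pairs of a gene, and 77.7% of those above 0 were whole. The TPM deposited by the authors are scaled to each library's total and to transcript length, and the deposited FPKM were not used. Length and effective length, also deposited by the authors, are averages over the estimated transcript mix. Library totals lay between 14513825 and 24694178 expected counts, and 37607 of 38924 identifiers were found in GENCODE M21.

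Expected counts were rounded and tested with edgeR 4.0.16 in R 4.3.3 (quasi-likelihood, robust, TMM factors 0.991 to 1.012, filterByExpr, 16493 genes kept and 22431 removed), in 1 model of 4 genotype means. Calls were made at an adjusted p under 0.05 (Benjamini-Hochberg, over all genes tested), and adjusted p values are from edgeR unless DESeq2 1.42.0 or limma 3.58.1 is named. CPM use the plain sum of a library, without TMM. The common biological coefficient of variation was 0.0531. The steps were tested on simulated counts. Because each genotype has 3 separate mice, the tests read the spread between animals; litters and cages are not named in the labels.

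The members and gene lists were chosen with earlier results of these data known. All members, the tested subunits, up to 4 called genes per pathway list and comparison, and the 3 genes most alike to each member (predicted genes left out) were to be named; some of these genes are not reported here. The exact tests of length were to be adjusted over 21 tests, of which 9 could be made because the length of 4 members is constant. Alternatives were RLE scaling, no filter, Xist as a covariate, each library left out, both genotypes alone, a replicate block, DESeq2, limma on log2(TPM + 0.1) and effective length.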

Additional observations from a re-analysis of the deposited data

Results flagged for a closer look

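The genes in this section differed between 2 mutant groups by a direct test. None of the 7 subunits did. The mutant groups differ in strain as well as in Rorb allele, so the test cannot tell these 2 sources of a difference apart. Gabrg1 was higher in h4 than in h1 by 0.23 on the log2 scale (edgeR adjusted p = 0.0198) and than in h2 by 0.28 (edgeR adjusted p = 0.007). Among genes of the pathway, Dbi was higher in h4 than in h1 by 0.34 (edgeR adjusted p = 2.25e-06) and than in h2 by 0.36 (edgeR adjusted p = 1.22e-06). Slc12a5 was lower in h4 than in h1 (-0.15, edgeR adjusted p = 0.019) and in h2 (-0.19, edgeR adjusted p = 0.00222). Nlgn2 was lower in h4 than in h2 (-0.15, edgeR adjusted p = 0.0216) and Plcl2 lower in h4 than in h1 (-0.17, edgeR adjusted p = 0.0426). The calls of Dbi between mutants held under each alternative run. That of Slc12a5 against h2 ended with limma on log2 TPM alone (adjusted p = 0.101). The other calls ended with limma (0.12 to 0.32) and with single libraries left out, and that of Plcl2 also with Xist as a covariate (edgeR adjusted p = 0.0682). Gabrg1 was not called against h1 without h1 replicate 2 (edgeR adjusted p = 0.126) or h4 replicate 1 (0.128), nor against h2 without h4 replicate 1 (0.0638). The call of Slc12a5 against h1 ended without h1 replicate 1 or 3 or h4 replicate 1 or 3 (0.0523 to 0.0822). That of Nlgn2 ended without h2 replicate 2 or 3 or any h4 library (0.0605 to 0.0745), and that of Plcl2 without h1 replicate 1 or 3 or h4 replicate 1 or 3 (0.109 to 0.211). No test of a single outlying library was run in these groups of 3, and h4 replicate 3 at Gabra2 is given as values in the report.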

How the results depend on the processing

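The count of subunits called was 0 of 7 in each comparison under each alternative, with these exceptions, all of them Gabra5 lower in h4. Without a filter on low counts, 1 was called in h4 against h2 (edgeR adjusted p = 0.0417). With a library left out, the count ranged from 0 to 1 in h4 against h1 and in h4 against h2, the 1 being without h4 replicate 2, and was 0 in the other 5 comparisons. Of 882 values of members under alternatives, 3 were called and 78 had another sign than with all libraries, none of them called. Of 410 values of called pathway and subunit genes, 309 kept the call, 101 lost it and 0 turned sign. Lengths gave the same direction with effective length. The h1 and h2 titles share numbers 1 to 3, but same-numbered libraries did not deviate together (correlations of -0.147, -0.112 and 0.028), and with the number as a replicate block 0 of 7 subunits were called in h2 against h1. The causes were not tested. The design has 3 brains a genotype and whole-brain RNA. Without a covariate, the intervals against WT reached up to 1.161-fold (1.418-fold for Gabra2). Changes smaller than the intervals, or limited to 1 brain region, may not be detectable with these libraries.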
